A study of Mus musculus with 7 samples.

Results

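The genes described here drive a cell through G2 and mitosis: cyclins and kinases that start mitosis, the spindle checkpoint, kinetochore and condensin subunits, and the proteins of anaphase and cytokinesis. The list names 50 genes. Of these, 49 were measured by a probe set that carries exactly 1 gene symbol, out of 18193 genes measured that way, and Ccnb1 (cyclin B1) was not analysed here. Each gene was read from its brightest probe set over the 7 arrays, and no filter on low values was applied, so all 49 entered the test.

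TEL-JAK2 cells came from the leukemic thymus of 4 samples, and ICN1 cells from the leukemic bone marrow of 3. Both groups were C57Bl/6 mice at the terminal stage of a T-cell leukemia, of no stated age. TEL-JAK2 is a fusion of TEL (Etv6) with the JAK2 tyrosine kinase that keeps the kinase active, and ICN1 is the intracellular, constitutively active part of the NOTCH1 receptor. The labels name no sorting step, no promoter for the transgenes and no healthy control. Genotype and tissue of origin therefore cannot be told apart in any value below, and p-values measure the spread between samples that the labels do not expressly call separate animals. Values are log2 RMA levels, differences are TEL-JAK2 minus ICN1 with their standard error (SE, n = 4 TEL-JAK2 and n = 3 ICN1 arrays), and a gene was called when limma's Benjamini-Hochberg adjusted p over all 18193 genes was under 0.05.

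Mitosis is run by waves of phosphorylation and protein destruction. Cyclin-dependent kinase 1 with its cyclins starts it, condensins compact the chromosomes, kinetochores tie them to the spindle, the checkpoint holds the cell until every kinetochore is attached, and a ubiquitin ligase, the anaphase-promoting complex, then releases the sister chromatids. Most of these genes are transcribed in G2 and M under the DREAM and MuvB complexes, B-Myb and FOXM1, which act through the cell cycle homology region (CHR) of their promoters, often next to boxes bound by the factor NF-Y. Their mRNA is widely used as a measure of proliferation.

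The promoters of 7 members are shown so that the presence or absence of these elements can be seen. The first 6 are those of the called member with the smallest adjusted p among the checkpoint, kinetochore, condensin, cytokinesis, mitotic entry and anaphase genes, except that Cdc25b stands in for Cdc25c. Bub3, a member that was not called, was added after its value was seen. Each window runs from 250 bases before to 50 bases after the RefSeq transcription start (GRCm38.p6), written 5′ to 3′ on the gene's strand. Capitals mark the CHR (TTTGAA or TTCGAA) and the NF-Y box (CCAAT), each searched on both strands. TTCGAA reads the same on both strands, and where CCAAT and its reverse complement ATTGG overlap both were counted.
Mad2l1 (chr6:66534971-66535270, plus strand): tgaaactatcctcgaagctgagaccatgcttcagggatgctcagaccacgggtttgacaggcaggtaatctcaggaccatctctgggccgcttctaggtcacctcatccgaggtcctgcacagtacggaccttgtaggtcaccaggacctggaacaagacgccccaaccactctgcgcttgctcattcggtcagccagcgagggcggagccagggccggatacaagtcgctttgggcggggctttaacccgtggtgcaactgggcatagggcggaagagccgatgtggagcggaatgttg
Cenpf (chr1:189688037-189688336, minus strand): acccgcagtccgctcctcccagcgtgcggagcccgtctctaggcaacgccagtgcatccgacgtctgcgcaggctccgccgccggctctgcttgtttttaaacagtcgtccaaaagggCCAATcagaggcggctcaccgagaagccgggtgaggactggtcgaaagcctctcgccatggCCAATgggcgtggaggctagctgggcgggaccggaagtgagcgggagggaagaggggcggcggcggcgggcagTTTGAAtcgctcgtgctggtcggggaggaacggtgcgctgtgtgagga
Ncapd2 (chr6:125191537-125191836, minus strand): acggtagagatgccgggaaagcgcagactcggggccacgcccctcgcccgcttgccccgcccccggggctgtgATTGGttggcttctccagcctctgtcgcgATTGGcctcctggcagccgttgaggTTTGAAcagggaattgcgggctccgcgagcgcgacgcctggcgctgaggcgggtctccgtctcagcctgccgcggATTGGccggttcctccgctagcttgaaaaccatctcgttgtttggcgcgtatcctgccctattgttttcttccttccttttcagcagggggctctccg
Prc1 (chr7:80294201-80294500, plus strand): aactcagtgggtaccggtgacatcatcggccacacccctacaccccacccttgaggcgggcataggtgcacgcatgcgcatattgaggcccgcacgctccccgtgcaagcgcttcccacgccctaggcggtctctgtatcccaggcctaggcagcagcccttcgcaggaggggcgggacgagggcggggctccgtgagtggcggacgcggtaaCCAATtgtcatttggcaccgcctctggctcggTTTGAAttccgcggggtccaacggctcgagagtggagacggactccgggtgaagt
Cdc25b (chr2:131186698-131186997, plus strand): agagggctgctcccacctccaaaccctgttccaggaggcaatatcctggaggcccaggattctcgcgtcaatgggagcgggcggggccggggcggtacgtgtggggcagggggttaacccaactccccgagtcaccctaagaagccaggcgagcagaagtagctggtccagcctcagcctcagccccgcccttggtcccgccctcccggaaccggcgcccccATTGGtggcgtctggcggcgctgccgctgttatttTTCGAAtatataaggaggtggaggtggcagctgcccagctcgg
Ube2c (chr2:164769679-164769978, plus strand): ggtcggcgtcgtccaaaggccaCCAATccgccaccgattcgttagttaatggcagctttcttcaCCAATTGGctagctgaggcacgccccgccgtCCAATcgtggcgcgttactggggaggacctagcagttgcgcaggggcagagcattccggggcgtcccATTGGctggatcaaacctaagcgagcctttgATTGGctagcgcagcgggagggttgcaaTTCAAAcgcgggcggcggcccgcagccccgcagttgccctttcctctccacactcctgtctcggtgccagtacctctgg
Bub3 (chr7:131560120-131560419, plus strand): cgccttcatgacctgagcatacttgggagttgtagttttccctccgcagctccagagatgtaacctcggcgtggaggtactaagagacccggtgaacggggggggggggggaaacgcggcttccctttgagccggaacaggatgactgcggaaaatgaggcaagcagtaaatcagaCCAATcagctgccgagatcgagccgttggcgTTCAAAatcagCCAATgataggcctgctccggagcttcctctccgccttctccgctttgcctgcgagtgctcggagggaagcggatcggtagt

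The Prc1 window holds the compact arrangement, with an NF-Y box 37 bases and a CHR 5 bases upstream of the start. Cenpf has a CHR 2 bases and Cdc25b a CHR 7 bases downstream of the start, and Ube2c has 1 CHR and 6 NF-Y boxes. Mad2l1 has neither, and Bub3 has both. Among the 40 members with a RefSeq window, 28 (70.0%) held a CHR, 30 (75.0%) an NF-Y box and 26 (65.0%) both. In the windows of all 27025 genes the shares were 19.4%, 37.9% and 7.7%. Mitotic genes outside the list, described further on, held a CHR in 35 of 70 windows (50%), an NF-Y box in 41 (58.6%) and both in 24 (34.3%). Replication genes held a CHR in 6 of 31 windows (19.4%), the same share as all genes, and an NF-Y box in 19 (61.3%). All 4 cytokinesis members had a CHR, as did 4 of 5 checkpoint, 3 of 4 condensin and 6 of 10 kinetochore members. Of the 38 CHR matches in members, 26 began between 50 bases upstream of the start and the window's end, and NF-Y boxes lay further upstream, with a median position of -68. Members with a CHR had a median difference of -1.80 (n = 28) and those without one of -1.92 (n = 12). A match is a run of letters, not a measured binding site.

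**Figure D1:**
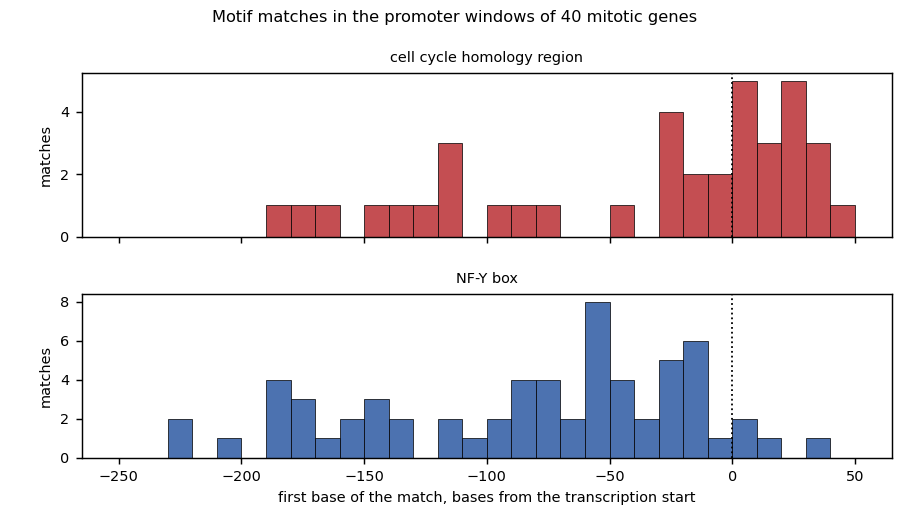
Position of CHR matches (top, 38 matches) and NF-Y boxes (bottom, 63 matches) in the promoter windows of 40 mitotic genes, in bins of 10 bases, as bases from the transcription start (dotted line). CHR matches crowd around the start, where 26 of 38 lie, and NF-Y boxes peak upstream of them.

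Array medians lay between 5.44 and 5.5. Pearson's r over all probe sets was 0.975 to 0.989 among TEL-JAK2 arrays, 0.973 to 0.982 among ICN1 arrays and 0.921 to 0.944 between the groups. The T-lineage label was borne out by bright genes of the T-cell receptor complex, with Cd3d at 13.61 to 13.90 in TEL-JAK2 and 13.08 to 13.35 in ICN1. The mean level of 13 T-lineage markers was 11.99 to 12.30 in TEL-JAK2 and 11.20 to 11.68 in ICN1. Of these markers 9 were called higher in TEL-JAK2 and 1 lower, with a median difference of 0.68. ICN1 replicates 1 and 2 held both the female transcript Xist (11.51 and 11.78) and the Y-linked Eif2s3y (8.93 and 9.41), as no other array did. Results are therefore also given without these 2 arrays, which leaves ICN1 replicate 3 alone and takes the spread from TEL-JAK2.

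Mitotic genes were lower in TEL-JAK2 than in ICN1 leukemias almost throughout. Of the 49 members, 47 fell, 0 rose and 2, Bub3 and Smc4, were not called (limma). No member had a positive difference at an unadjusted p under 0.05 in its brightest probe set either. A dim further probe set of Incenp did (3.90 in TEL-JAK2, 3.62 in ICN1, difference 0.28 ± 0.09), but it was not called. Across all genes 24.1% were called, 12.2% lower and 11.9% higher. Of the 47, 45 fell at least 2-fold, which 6.1% of all genes did. In 48 members every TEL-JAK2 array lay below every ICN1 array, against 15.9% of all genes, and the gap between the groups exceeded 1 log2 unit in 38. At an adjusted p under 0.01, 42 members and 6.62% of all genes were lower. The median difference of the members was -1.89, a 3.70-fold lower level, beside 0.04 for all genes. The differences were narrowly spread: 36 of the 49 lay between -1.5 and -2.5. Without ICN1 replicates 1 and 2, 48 differences stayed negative with a median of -1.74, and 32 members were called lower, against 8.56% of all genes.

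**Figure D2:**
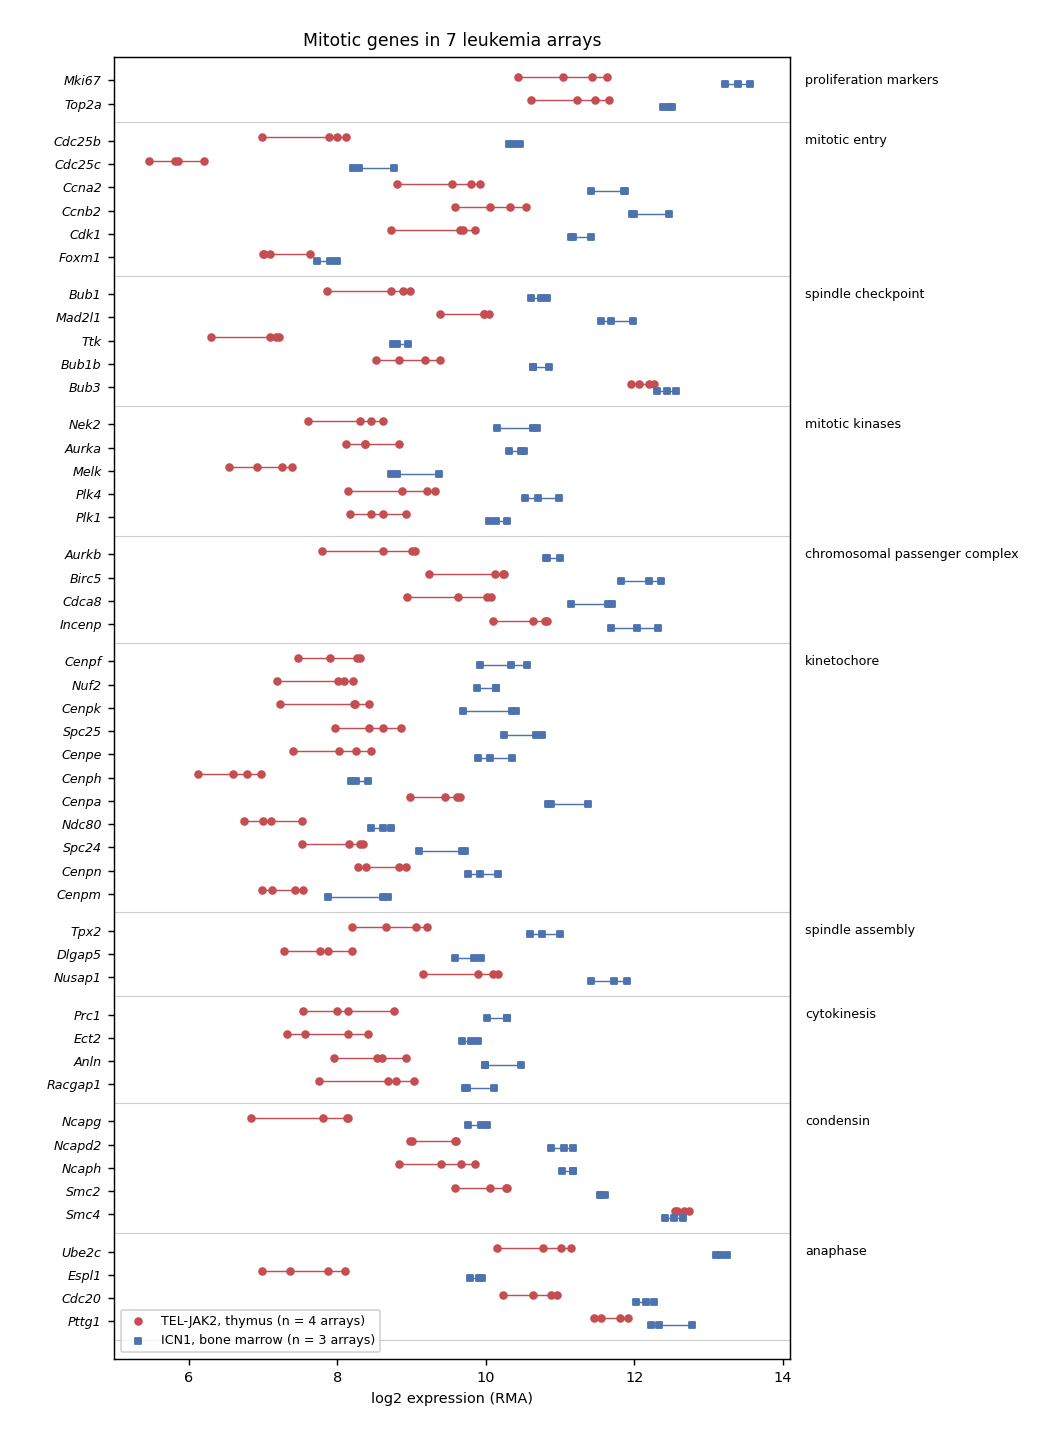
Log2 expression of the 49 mitotic genes in every array, grouped by role, with TEL-JAK2 arrays (red circles, n = 4) drawn above ICN1 arrays (blue squares, n = 3) and a line joining the lowest and highest array of a group. The groups overlap for Smc4 and nearly touch for Bub3 and Foxm1, and stand apart for the rest.

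Marrow holds many dividing red cell precursors, and most markers of such cells were also lower in TEL-JAK2. Erythroid markers averaged 5.88 to 6.15 in TEL-JAK2 arrays and 11.14 to 11.39 in ICN1 arrays (10 of 12 lower). Their median difference was -6.34 and the largest fall -8.77. The brightest over all arrays, Tfrc and Gata1, differed by less than that median (-1.67 and -0.81). Tfrc, the transferrin receptor, read 10.87 to 12.38 in TEL-JAK2 and 13.16 to 13.30 in ICN1. Gata1, an erythroid transcription factor, read 9.07 to 10.08 in TEL-JAK2 and 10.14 to 10.81 in ICN1 (not called). Granulocyte markers averaged 5.13 to 5.55 in TEL-JAK2 and 6.08 to 7.80 in ICN1 (5 of 11 lower), the brightest being S100a9 at 5.55 to 7.04 in TEL-JAK2 and 8.64 to 11.04 in ICN1 and S100a8 at 5.49 to 7.32 in TEL-JAK2 and 8.48 to 10.81 in ICN1. Macrophage markers averaged 6.39 to 8.66 in TEL-JAK2 and 8.89 to 10.25 in ICN1 (5 of 11 lower). The brightest macrophage gene, Lyz2, was not called (9.83 to 11.77 in TEL-JAK2, 10.25 to 10.96 in ICN1), and Csf1r fell (7.62 to 10.01 in TEL-JAK2, 10.40 to 12.33 in ICN1). Megakaryocyte markers averaged 5.63 to 5.84 in TEL-JAK2 and 6.89 to 8.58 in ICN1 (4 of 5 lower), with Itga2b and Gp9 the brightest (differences of -0.98 and -0.92). B-lineage markers averaged 6.58 to 7.76 in TEL-JAK2 and 5.90 to 7.71 in ICN1, with 1 of 8 higher and 0 lower. Dendritic and MHC class II markers averaged 7.79 to 9.17 in TEL-JAK2 and 6.53 to 8.29 in ICN1, with 0 of 9 called and a median difference of 1.11. Their brightest genes, Ighm, Cd79b, H2-Aa and Cd74, were not called. Of 10 thymic epithelial markers 3 rose, with Epcam at 9.67 to 11.77 in TEL-JAK2 and 4.43 to 5.27 in ICN1, while Cldn3 was not called. Of 10 stromal markers 1 fell, and the brightest, Pecam1 and Col1a2, were not called. The part of these cells in the mitotic difference was not tested. Fewer dividing cells and less mitotic RNA per cell cannot be told apart in bulk RNA.

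The general proliferation markers were bright in both leukemias. Mki67, which coats mitotic chromosomes and marks cycling cells in pathology, read 11.43, 11.04, 10.43 and 11.63 in TEL-JAK2 replicates 1 to 4, against 13.40, 13.56 and 13.22 in ICN1 replicates 1 to 3. It fell 4.80-fold (-2.26 ± 0.28, adjusted p = 0.00151, limma). Top2a, the topoisomerase that untangles sister chromatids, read 11.66, 11.23, 10.61 and 11.47 in TEL-JAK2, against 12.50, 12.38 and 12.46 in ICN1 (-1.20 ± 0.24). Neither gene overlapped between the groups, and TEL-JAK2 replicate 3 was the lowest array for both. A further Top2a probe set fell by more (-2.57 ± 0.34), and another, at 4.20 in TEL-JAK2 and 3.98 in ICN1, was not called.

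All 6 measured genes of mitotic entry fell, and in the brightest probe sets they included the largest differences of the set. The phosphatases Cdc25b and Cdc25c remove the inhibitory phosphates from CDK1. Cdc25b read 7.89, 8.12, 6.99 and 8.0 in TEL-JAK2, against 10.31, 10.36 and 10.46 in ICN1, a 6.18-fold fall (-2.63 ± 0.26, adjusted p = 0.000675, limma). Cdc25c read 6.21, 5.86, 5.46 and 5.82 in TEL-JAK2, against 8.21, 8.77 and 8.29 in ICN1 (-2.59 ± 0.21, adjusted p = 0.000252, limma). Both gaps between the groups were at least 2.00 log2 units, and the TEL-JAK2 levels of Cdc25c lay below the median gene (6.34), where RMA compresses folds. The Cdc25c probe set is of a type that can cross-hybridize, and the gene's other probe set fell by less (-1.81 ± 0.24). Without cross-hybridizing probe sets the median difference of the entry genes was -1.91, against -2.11. Cyclin B2 (Ccnb2), a partner of CDK1, read 10.33, 10.05, 9.59 and 10.54 in TEL-JAK2, against 11.99, 12.46 and 11.97 in ICN1 (-2.01 ± 0.24). Cyclin A2 (Ccna2), which acts in S phase and G2, fell by 2.20 on the log2 scale, and Cdk1 itself by 1.77.

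Foxm1, a transcription factor of the G2 and M program, had the smallest fall among the entry genes. It read 7.63, 7.0, 7.02 and 7.10 in TEL-JAK2, against 7.73, 7.90 and 8.0 in ICN1 (-0.69 ± 0.17, adjusted p = 0.0263, limma), and TEL-JAK2 replicate 1 came within 0.10 of the lowest ICN1 array. The call was lost in 5 of the 7 fits that leave out 1 array (adjusted p from 0.057 to 0.0779). Its probe sets disagreed in size: 2 others fell (-0.98 and -1.79), and the last, at 3.34 in TEL-JAK2 and 3.25 in ICN1, was not called.

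In the spindle checkpoint, 4 of 5 members fell. The checkpoint proteins MAD2 and BUBR1 bind and silence CDC20, and the kinases BUB1 and MPS1 (Ttk) recruit them to unattached kinetochores. Mad2l1, which encodes MAD2, read 9.98, 9.97, 9.38 and 10.04 in TEL-JAK2, against 11.68, 11.98 and 11.55 in ICN1 (-1.90 ± 0.19, adjusted p = 0.000679, limma). Bub1b, the gene of BUBR1, read 9.38, 8.83, 8.52 and 9.18 in TEL-JAK2, against 10.63, 10.85 and 10.63 in ICN1 (-1.72 ± 0.21). Ttk read 7.22, 7.10, 6.30 and 7.17 in TEL-JAK2, against 8.95, 8.81 and 8.75 in ICN1 (-1.89 ± 0.23). These falls were close to one another, and Bub1 fell by 2.11. TEL-JAK2 replicate 3 was lowest in all 4 genes.

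Bub3, the WD-repeat partner of BUB1 and BUBR1, was bright in both groups and was not called. It read 12.26, 11.96, 12.06 and 12.19 in TEL-JAK2, against 12.44, 12.30 and 12.56 in ICN1 (-0.32 ± 0.11, adjusted p = 0.0844, limma). The groups were separated by 0.05 log2 units. Of its 4 other probe sets, those with mean levels of 6.35 and 6.23 were called lower (-0.74 ± 0.13 and -0.99 ± 0.17), and those at 8.18 and 5.37 were not (-0.20 ± 0.12 and -0.48 ± 0.20). Bub3 was called lower with the mean of its probe sets (-0.55, adjusted p = 0.00307, limma). Centring each array on 4 CD3 genes, a scaling chosen after seeing the data that shifts every difference by -0.62, also made it lower (-0.94, adjusted p = 0.00595).

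The mitotic kinases fell in 5 of 5 cases, with differences from -1.61 to -2.24. Aurka, the Aurora kinase of centrosomes and spindle poles, read 8.83, 8.37, 8.12 and 8.38 in TEL-JAK2, against 10.52, 10.47 and 10.31 in ICN1 (-2.01 ± 0.17, adjusted p = 0.000322, limma). Plk1, the Polo kinase that acts from mitotic entry to cytokinesis, read 8.92, 8.45, 8.17 and 8.62 in TEL-JAK2, against 10.14, 10.04 and 10.28 in ICN1 (-1.61 ± 0.18). Nek2, a kinase of centrosome separation, read 8.62, 8.30, 7.61 and 8.45 in TEL-JAK2, against 10.15, 10.63 and 10.69 in ICN1 (-2.24 ± 0.26). None of these 3 overlapped between groups. Plk4, the kinase of centriole duplication, read 9.32, 8.87, 8.14 and 9.21 in TEL-JAK2, against 10.99, 10.70 and 10.53 in ICN1 (-1.85 ± 0.29), and Melk fell by 1.94.

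The chromosomal passenger complex corrects faulty attachments at centromeres and later marks the cleavage site, and its 4 genes fell together. Its kinase Aurkb read 9.0, 8.62, 7.79 and 9.05 in TEL-JAK2, against 10.81, 11 and 10.83 in ICN1 (-2.26 ± 0.30). Birc5, the gene of survivin, read 10.25, 10.12, 9.23 and 10.23 in TEL-JAK2, against 12.19, 12.36 and 11.82 in ICN1 (-2.17 ± 0.27). The scaffold gene Incenp read 10.83, 10.63, 10.09 and 10.79 in TEL-JAK2, against 12.03, 12.32 and 11.68 in ICN1 (-1.42 ± 0.22). In each of them TEL-JAK2 replicate 3 stood below the other 3 arrays of its group. Cdca8, which encodes borealin, read 10.01, 9.62, 8.94 and 10.07 in TEL-JAK2, against 11.64, 11.70 and 11.15 in ICN1 (-1.83 ± 0.29). Adjusted p-values of the 4 ran from 0.00168 to 0.00444 (limma).

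All 11 kinetochore and centromere genes fell, with a median difference of -1.67 and a range from -1.12 to -2.29. The NDC80 complex, which grips the microtubule, fell in its 4 subunits, Nuf2 (-2.18), Spc25 (-2.09), Ndc80 (-1.5) and Spc24 (-1.42). Nuf2 read 8.21, 8.01, 7.19 and 8.09 in TEL-JAK2, against 10.14, 10.14 and 9.88 in ICN1 (adjusted p = 0.00111, limma). Spc25 read 8.86, 8.43, 7.97 and 8.61 in TEL-JAK2, against 10.67, 10.75 and 10.24 in ICN1 (adjusted p = 0.000952, limma).

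Cenpf, a large protein of the outer kinetochore that peaks in G2 and M, read 8.27, 7.90, 7.47 and 8.30 in TEL-JAK2, against 10.34, 10.55 and 9.92 in ICN1 (-2.29 ± 0.24, adjusted p = 0.000821, limma). Cenpe, a kinetochore kinesin that moves chromosomes to the metaphase plate, fell by 2.06, and Cenpa, the histone H3 variant that marks centromeres, by 1.61. The 4 members that belong to the constitutive centromere network fell, namely Cenpk (-2.12), Cenph (-1.67), Cenpn (-1.34) and Cenpm (-1.12), while Cenpt of the same network, which is not on the list, was not called (-0.22 ± 0.12). Cenpm, the smallest of these, read 7.54, 7.12, 6.99 and 7.43 in TEL-JAK2, against 8.68, 8.62 and 7.87 in ICN1 (-1.12 ± 0.23, adjusted p = 0.0126, limma). Its ICN1 replicate 3 stood nearer to TEL-JAK2 than to the other ICN1 arrays, and no array overlapped.

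The 3 genes of spindle assembly fell, with differences from -1.85 to -2.01. Tpx2, which activates Aurora A and nucleates microtubules near chromatin, read 9.21, 8.65, 8.20 and 9.06 in TEL-JAK2, against 10.60, 11 and 10.76 in ICN1 (-2.01 ± 0.25). Dlgap5, a stabilizer of kinetochore fibres, read 8.20, 7.77, 7.28 and 7.87 in TEL-JAK2, against 9.84, 9.93 and 9.59 in ICN1 (-2.01 ± 0.21). Nusap1, a microtubule bundler, read 10.16, 9.89, 9.16 and 10.10 in TEL-JAK2, against 11.72, 11.90 and 11.41 in ICN1 (-1.85 ± 0.26). All 3 kept the groups at least 1.25 log2 units apart.

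Cytokinesis was represented by 4 genes, and all fell. Prc1, which bundles the microtubules of the central spindle, read 8.77, 8.14, 7.54 and 7.99 in TEL-JAK2, against 10.28, 10.28 and 10.02 in ICN1 (-2.08 ± 0.27, adjusted p = 0.00185, limma). Ect2, the exchange factor that activates RhoA at the equator, read 8.42, 7.56, 7.33 and 8.14 in TEL-JAK2, against 9.68, 9.80 and 9.89 in ICN1 (-1.93 ± 0.26). Anln (anillin, a scaffold of the contractile ring) read 8.92, 7.96, 8.60 and 8.53 in TEL-JAK2, against 10.48, 9.99 and 9.99 in ICN1 (-1.65 ± 0.24). Anln was 1 of the few members in which TEL-JAK2 replicate 2, not 3, was the lowest array. Racgap1, the partner of a kinesin in the centralspindlin complex, read 8.68, 8.79, 7.76 and 9.03 in TEL-JAK2, against 9.75, 10.11 and 9.72 in ICN1 (-1.30 ± 0.30, adjusted p = 0.0181, limma). Leaving out ICN1 replicate 2 ended that call (adjusted p = 0.0632, limma), and its next brightest probe set was called lower as well (-1.62 ± 0.36).

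Condensin I is built on the ATPase pair SMC2 and SMC4 with the subunits CAP-G, CAP-D2 and CAP-H, and 4 of its 5 genes fell. Ncapd2 read 9.59, 9.01, 8.98 and 9.60 in TEL-JAK2, against 10.88, 11.05 and 11.18 in ICN1 (-1.74 ± 0.19, adjusted p = 0.00105, limma). Smc2 read 10.29, 10.05, 9.59 and 10.27 in TEL-JAK2, against 11.60, 11.55 and 11.54 in ICN1 (-1.51 ± 0.18). Ncaph read 9.66, 9.40, 8.83 and 9.86 in TEL-JAK2, against 11.17, 11.18 and 11.02 in ICN1 (-1.69 ± 0.23). These genes moved by similar amounts, and Ncapg fell by 2.17.

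Smc4 stood apart from its complex. It read 12.73, 12.57, 12.67 and 12.55 in TEL-JAK2, against 12.66, 12.53 and 12.41 in ICN1 (0.10 ± 0.10, adjusted p = 0.540, limma), and it was the single member whose groups overlapped. Its difference turned negative with the mean of its probe sets (-0.01) and with the CD3 centring (-0.53, adjusted p = 0.0158, limma). Its other 2 probe sets, with mean levels of 11.21 and 11.09, were not called (-0.16 ± 0.27 and 0.03 ± 0.15). No test of Smc4 against Smc2 was made, because the pair was picked for the contrast.

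The 4 genes of the metaphase to anaphase switch fell. Ube2c, the ubiquitin-conjugating enzyme of the anaphase-promoting complex, read 11.14, 10.77, 10.15 and 11.01 in TEL-JAK2, against 13.15, 13.25 and 13.10 in ICN1, a 5.28-fold fall (-2.40 ± 0.23, adjusted p = 0.00054, limma). Espl1, which encodes separase, the protease that cuts cohesin, read 7.88, 7.36, 6.99 and 8.11 in TEL-JAK2, against 9.79, 9.95 and 9.91 in ICN1 (-2.30 ± 0.26). Cdc20, the activator that the checkpoint restrains, read 10.96, 10.64, 10.23 and 10.88 in TEL-JAK2, against 12.15, 12.27 and 12.02 in ICN1 (-1.47 ± 0.18). All 3 kept the groups over 1 log2 unit apart. Pttg1, which encodes securin, the inhibitor of separase, read 11.46, 11.92, 11.55 and 11.81 in TEL-JAK2, against 12.33, 12.78 and 12.23 in ICN1 (-0.76 ± 0.17, adjusted p = 0.0188, limma). Its call was lost without TEL-JAK2 replicate 1 (adjusted p = 0.0515, limma). Of its other probe sets, the brighter fell by 1.29 and the dimmer was not called (-0.36 ± 0.16).

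Set side by side, the median difference was -1.89 for the checkpoint, -1.67 for the kinetochore, -1.69 for condensin and -1.79 for cytokinesis. The members of each group covered ranges that overlap the others, from -0.32 to -2.11 in the checkpoint, -1.12 to -2.29 in the kinetochore, 0.10 to -2.17 in condensin and -1.30 to -2.08 in cytokinesis. Medians of the remaining groups were -2.11 for mitotic entry, -2.01 for spindle assembly, -2.0 for the passenger complex, -1.94 for the kinases, -1.88 for anaphase and -1.73 for the proliferation markers. The order of these medians was not tested. The small differences, those of Smc4, Bub3, Foxm1 and Pttg1, lay in different role groups.

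**Figure D3:**
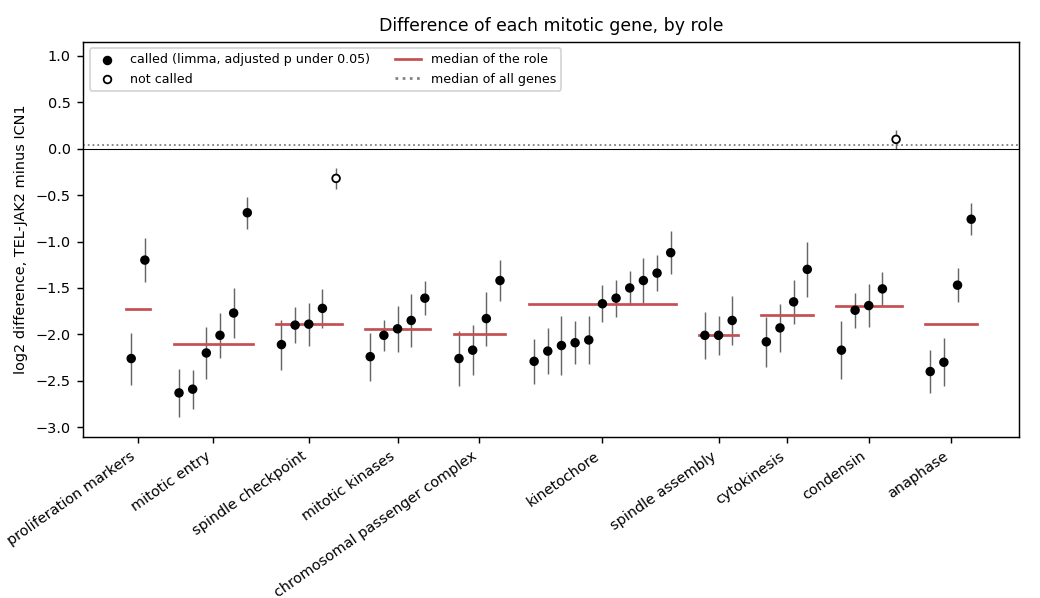
Log2 difference (TEL-JAK2 minus ICN1) of each of the 49 mitotic genes with its SE, grouped by role. Filled points were called by limma, the 2 open points (Bub3 and Smc4) were not, red bars are role medians between -1.67 and -2.11, and the dotted line is the median of all genes at 0.04.

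Falls were found over a wide range of levels. Called members had TEL-JAK2 means from 5.84 (Cdc25c) to 11.68 (Pttg1, difference -0.76). Their ICN1 means ran from 7.87 (Foxm1) to 13.39 (Mki67). The highest TEL-JAK2 means, 12.63 and 12.12, belonged to Smc4 and Bub3. A member that does not fall keeps a high TEL-JAK2 level, so this ranking is tied to the difference itself. By ICN1 mean, Mki67 (13.39, difference -2.26) and Ube2c (13.17, difference -2.40) lay above Smc4 (12.53) and Bub3 (12.43). In the plot against mean level the 2 members that were not called lie at the bright end, near Pttg1 and Mki67, which both fell. Further probe sets gave a separate reading of 33 members. Of 59 such probe sets, 45 were called lower, 0 higher and 14 were not called, where 11.9% of all probe sets were called lower. Of the 35 with a mean above that of the median gene (6.34), 31 were lower (-0.73 to -2.57), and the 4 that were not called belonged to Smc4 (2), Bub3 and Pttg1.

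**Figure D4:**
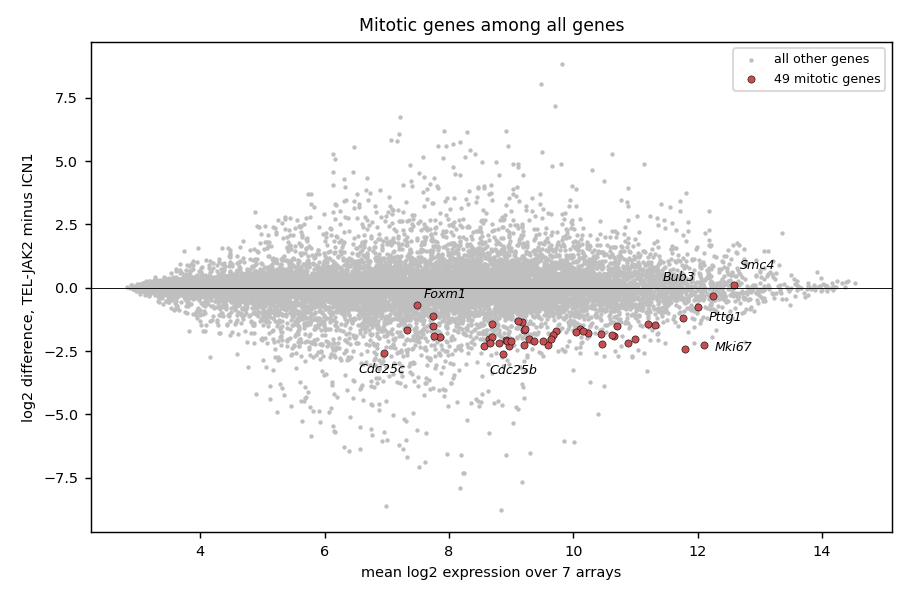
Log2 difference (TEL-JAK2 minus ICN1) against mean log2 expression over the 7 arrays for all 18193 genes (grey), with the 49 mitotic genes in red. The mitotic genes form a band with a median of -1.89. Smc4 and Bub3 lie near 0 at its bright end, where Mki67 (-2.26) also lies.

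Within the TEL-JAK2 group the members varied together. TEL-JAK2 replicate 3 was the lowest array for 44 of 49 members and the highest for 0, with a median deviation of -0.54 from the group mean. Replicate 1 was highest for 31 (median deviation 0.33) and replicate 4 for 14 (0.22), while replicate 2 lay between (-0.01). Over all genes these deviations were within 0.02. The SD of a member across TEL-JAK2 arrays had a median of 0.41, against 0.17 across ICN1 arrays, and was the larger of the pair in 46 of 49 members. For all genes the medians were 0.16 in TEL-JAK2 and 0.18 in ICN1. Without replicate 3 the members' TEL-JAK2 median SD was 0.22. Among ICN1 arrays, replicate 2 was highest for 27 members (median deviation 0.12) and replicate 3 lowest for 32 (-0.14). TEL-JAK2 replicate 3 also had the lowest macrophage (6.39) and dendritic cell (7.79) marker means of its group and the highest T-lineage mean (12.30), and the part of these in its low mitotic level was not tested. Leaving it out moved the members' median difference to -1.68 and left 46 called lower.

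**Figure D5:**
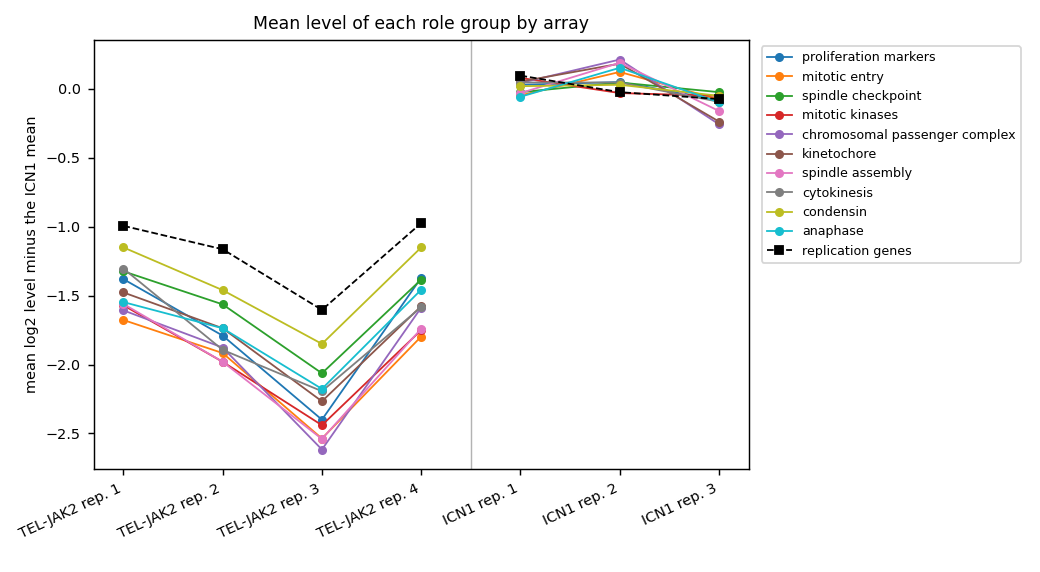
Mean log2 level of each role group in each array, minus the group's mean over ICN1 arrays, with replication genes dashed. All lines dip together at TEL-JAK2 replicate 3, and every TEL-JAK2 point lies below every ICN1 point.

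Mitotic genes outside the list mostly fell too, with a smaller median difference that was not tested against that of the members. Of 85 measured, 64 fell, 0 rose and 21 were not called, with a median of -1.11. At an unadjusted p under 0.05, 1 was higher. Other kinetochore genes fell in 17 of 21 cases, among them Zwint (-1.18 ± 0.09), Dsn1 (-1.45 ± 0.14) and Pmf1 (-1.31 ± 0.13). Other checkpoint genes fell in 6 of 8, including Zwilch (-1.79 ± 0.26), Trip13, an ATPase that disassembles MAD2 complexes (-1.88 ± 0.27), and Spdl1 (-0.94 ± 0.16), while Mad1l1, the kinetochore receptor of MAD2, was not called (0.65 ± 0.31). Further genes of the spindle and cytokinesis fell in 11 of 16, with the smallest adjusted p for Cit, Ckap5 and Ckap2l (-1.83, -1.43 and -1.67) and a largest fall of -2.57. Those of mitotic entry and exit fell in 23 of 27, with the smallest adjusted p for Fzr1, Ccnf and Mybl2 (-1.81, -2.08 and -2.05) and a largest fall of -2.31. Mybl2 encodes B-Myb, named above as an activator of the program, and read 6.04 to 6.83 in TEL-JAK2 and 8.42 to 8.52 in ICN1.

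Condensin II and cohesin genes were split. The condensin II genes Ncapg2 (-2.35 ± 0.39) and Ncapd3 (-0.75 ± 0.10) fell, and Ncaph2 was not called (-0.29 ± 0.12). Cdca5, which encodes sororin, a protector of cohesion, fell by 2.14. Stag2, Nipbl, Wapl, Pds5a and Pds5b, which build, load or release cohesin, were not called (differences from -0.42 to 0.25). With Ncaph2 they make up the 6 genes of this list that were not called. The other 7 of the 13 were lower, not all of them named here, and the median of the list was -0.53. Subunits of the anaphase-promoting complex that were not called were Anapc4 (0.15 ± 0.11), Anapc5 (-0.20 ± 0.16), Cdc16 (-0.07 ± 0.08) and Cdc23 (-0.07 ± 0.14), beside the falls of its activator Cdc20 and its enzyme Ube2c. These 4 were the only genes not called among the 27 of mitotic entry and exit outside the list, where the other 23 fell.

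DNA replication genes fell in 33 of 38 cases with a median of -1.12. Orc1, of the origin recognition complex, had the smallest adjusted p (-2.24 ± 0.15, adjusted p = 9.76e-05, limma), while Orc3 (-0.13 ± 0.14) and Orc4 (0.16 ± 0.23) were not called. Their mean level was 8.92 to 9.55 in TEL-JAK2 and 10.45 to 10.62 in ICN1, and TEL-JAK2 replicate 3 was again the lowest array. Among 21 kinesins 11 fell, with a largest fall of -2.20, and the smallest adjusted p belonged to the mitotic Kif18b (-1.93 ± 0.17), Kif23 (-1.96 ± 0.18) and Kif20b (-1.56 ± 0.16). Kif3b (0.93 ± 0.18), Kif21b (0.66 ± 0.19) and Kif15, dim at 5.06 in TEL-JAK2 and 4.74 in ICN1, rose. No test was made of mitotic against replication or kinesin genes as sets.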

How the data were processed

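RNA of 7 leukemic cell suspensions was measured on Affymetrix mouse arrays, 1 array per sample. The authors deposited log2 expression values, 1 per probe set, made with RMA per the submitters' processing notes. No RMA version is named in those notes. Because RMA forces the arrays onto a common distribution, total RNA per cell cannot be compared, and folds of dim genes are compressed. Depth has no meaning for arrays, and their number limits the precision. No batch was tested.

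Of 45037 probe sets, 34945 had 1 symbol in the platform annotation, 932 several and 9160 none. Through Entrez IDs, 34741 matched RefSeq (GRCm38.p6), and 0 symbols changed. The brightest probe set of a gene over the 7 arrays stood for it, which gave 18193 genes. TEL-JAK2 was compared with ICN1 by limma 3.58.1 under R 4.3.3, with a plain eBayes moderation of lmFit fits, two-sided p-values and Benjamini-Hochberg adjustment over all genes. Groups follow the genotype labels. Replicates are numbered in accession order and pair nothing.

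The members and lists were chosen with earlier results of these data known. All members could be named. Up to 3 called members per role with the smallest adjusted p, and the member with the largest, are given array by array. From each further list the 3 called genes per direction with the smallest adjusted p are named, and of other cell types the 2 brightest. Genes of those lists that were not called were named after their values were seen. Roles were compared by counts and medians. Alternatives were averaged probe sets, removal of cross-hybridizing ones, removal of genes below the 40th percentile of mean level, 3 rescalings (quantile, median, cyclic loess), a robust variance trend, array weights, a threshold of 0.01 and leaving out each array in turn. After seeing the data, centring on CD3 genes and a fit that leaves out ICN1 replicates 1 and 2 together were added. The fit was tested on simulated data. Promoter windows come from RefSeq, the first listed per gene. Figures were drawn with matplotlib 3.10.9.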

Additional observations from a re-analysis of the deposited data

Results flagged for a closer look

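A single array stood far from the other 3 of its TEL-JAK2 group in 4 of the 49 members, by Dixon's test, which chance meets in about 1 of 20 groups. The 49 members share the same 4 arrays and are not independent groups, so their count cannot be judged by that rate. TEL-JAK2 replicate 3 was the lowest array for 44 of the 49. Mad2l1 read 9.38 in TEL-JAK2 replicate 3, where the other 3 arrays read 9.97 to 10.04. Ttk read 6.30 in the same array, with the others at 7.10 to 7.22, and Birc5 read 9.23, with the others at 10.12 to 10.25. Foxm1 read 7.63 in TEL-JAK2 replicate 1, above the other 3 at 7.0 to 7.10. The first 3 of these genes remained called lower without the array in question, and so did Foxm1 without TEL-JAK2 replicate 1 (-0.83).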

How the results depend on the processing

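Of 881 values of single members under the alternatives, 849 kept their direction and side of the threshold. Smc4 turned negative with the mean of its probe sets (-0.01) and with CD3 centring (-0.53). Leaving out 1 array gave 45 to 47 members lower, 0 higher and a median between -1.98 and -1.68, and 44 members kept their call in all 7 such fits. The role medians without 1 array ran from -1.85 to -1.51 (proliferation markers), -2.24 to -1.90 (mitotic entry), -1.96 to -1.67 (checkpoint), -2.06 to -1.74 (kinases), -2.15 to -1.76 (passenger complex), -1.78 to -1.5 (kinetochore), -2.15 to -1.81 (spindle assembly), -1.95 to -1.65 (cytokinesis), -1.83 to -1.48 (condensin) and -2.0 to -1.71 (anaphase). The number of all genes called was 3209 to 4236 without 1 array, 2191 at an adjusted p under 0.01, 2596 without ICN1 replicates 1 and 2 and 12197 with CD3 centring, against 4380. Other mitotic genes lower were 60 to 64 without 1 array and 35 without ICN1 replicates 1 and 2, and those higher 0 to 3 without 1 array (Cenpj, Mad1l1 and Mad2l1bp without TEL-JAK2 replicate 4, Cenpj without ICN1 replicate 3) and 1 with array weights (Cenpj). CD3 centring moved the median gene to -0.58 and the share of calls that were higher to 6.45%, against 49.4%. It called all 49 members lower, as it did 62.7% of all genes, with a median of -2.51 and role medians of -2.36 (proliferation markers), -2.73 (mitotic entry), -2.51 (checkpoint), -2.56 (kinases), -2.62 (passenger complex), -2.29 (kinetochore), -2.63 (spindle assembly), -2.41 (cytokinesis), -2.31 (condensin) and -2.5 (anaphase). Averaging all probe sets of a gene, which takes in dim ones, gave medians of -1.40 for the checkpoint, -1.61 for the kinases and -1.27 for spindle assembly. No paired analysis was possible because the replicate numbers only name arrays in accession order. A probe set near background understates a fold.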
